A study of Mus musculus with 18 samples.

Results

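Laminin chains are the subunits of the laminins, the cross-shaped glycoproteins on which basement membranes are built. The genes were selected by symbol from the deposited table and comprised 9 of its 35667 genes: Lama1, Lama2, Lama3, Lama4 and Lama5 for alpha chains, Lamb1, Lamb2 and Lamb3 for beta chains, and Lamc1 for a gamma chain.

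Expression was measured by bulk RNA sequencing of Smart-seq2 libraries, in which full-length cDNA is amplified from little input RNA. Hepatic stellate cells (HSC), the vitamin A-storing pericytes of the liver sinusoid, came from healthy wild-type mice. Intrahepatic cholangiocyte organoids (ICO), cysts grown from bile duct epithelium, carried the fluorescent protein dTomato. The 6 groups of 3 libraries were HSC at day 0, directly after isolation and untreated, HSC kept alone on plastic for 7 days, HSC kept alone in Matrigel for 7 days, HSC sorted from a 7-day Matrigel co-culture with ICO, ICO sorted from the co-culture, and ICO kept alone in Matrigel for 7 days. All cultured groups shared a medium of DMEM with serum and supplemented Advanced DMEM/F12 containing EGF, FGF10, HGF and RSPO3, per the labels. The sources used here do not state strain, age or the number of animals or organoid lines, so p-values measure the spread between these libraries, which may be technical.

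A laminin is secreted only as a trimer of an alpha, a beta and a gamma chain, and the alpha chain carries most of the sites that cell receptors bind. Chains made by mesenchymal cells and by epithelia differ, so the chains present mark which basement membrane a cell can build. In healthy liver, laminin is scarce along the sinusoid and abundant around bile ducts and vessels, and HSC are known as a source of it after injury. Matrigel is an extract of a mouse tumour basement membrane whose main protein is itself a laminin, made of the products of Lama1, Lamb1 and Lamc1, so the gel cultures met laminin protein from outside that RNA sequencing does not count.

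The libraries held between 6907253 and 22158493 estimated counts. Stellate markers, 14 genes such as Pdgfrb and Des, summed to between 7395 and 99590 CPM (read counts relative to library size, scaled by the TMM method) in HSC libraries and to at most 357.7 CPM in ICO libraries, where Hand2 was at 0. Cholangiocyte markers, 20 genes such as Epcam and Cdh1, summed to between 17490 and 20530 CPM in ICO. They also reached 562.5 to 5642 CPM in HSC alone in Matrigel and 2569 to 7582 CPM in co-cultured HSC, against at most 262.3 CPM at day 0 and on plastic. A value called the organoid share was therefore computed for each library as the median, over 12 cholangiocyte markers, of the level divided by the mean level in organoids of the same culture. Among HSC alone in Matrigel, replicate 1 had a share of 32.5%, replicate 2 of 13.1% and replicate 3 of 3.84%. The co-cultured HSC libraries had shares of 28.8%, 15.6% and 42%, and no day 0 or plastic library exceeded 0.281%. The labels place HSC alone in Matrigel apart from organoids, so its values are those of the libraries so labelled. Hepatocyte markers (12 genes) ranged in sum from 17070 to 18120 CPM at day 0, with no later HSC library above 355 CPM, macrophage markers (13 genes) were highest in HSC alone in Matrigel, at 2480 to 3413 CPM, against 129.3 to 204.6 CPM in co-cultured HSC, and endothelial markers (13 genes) were highest at day 0, at 3256 to 3287 CPM. Markers of mesothelial cells and portal fibroblasts (8 genes) summed to 868.2 to 943.1 CPM in co-cultured HSC and to 53.14 to 260.5 CPM in HSC alone in Matrigel, and the same list reached 958.9 to 1371 CPM in the ICO libraries. In bulk libraries fewer cells of a type and less RNA per cell cannot be told apart.

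Promoter windows from RefSeq (build GRCm38.p6, 250 bases before to 50 after a gene's start) were examined for 5 of the 9 chains. These were 6 windows of the 32851 in the table. Windows of the other chains were not examined, whether or not any were available, so the motif results cover these 6 windows only. The windows of Lamb1 and Lama2, which were higher in HSC libraries, and of Lama5 and Lamb3, which were higher in ICO libraries, are printed as examples of chains that differed in opposite directions between the cell types. Capitals mark matches, on either strand, to the GC box (GGGCGG) or the TEAD motif (GGAATG). The windows lie on build GRCm38.p6 at chr12:31265043-31265342 on the plus strand for Lamb1, chr10:27616893-27617192 on the minus strand for Lama2, chr2:180225810-180226109 on the minus strand for Lama5 and chr1:193301993-193302292 on the plus strand for Lamb3.
Lamb1: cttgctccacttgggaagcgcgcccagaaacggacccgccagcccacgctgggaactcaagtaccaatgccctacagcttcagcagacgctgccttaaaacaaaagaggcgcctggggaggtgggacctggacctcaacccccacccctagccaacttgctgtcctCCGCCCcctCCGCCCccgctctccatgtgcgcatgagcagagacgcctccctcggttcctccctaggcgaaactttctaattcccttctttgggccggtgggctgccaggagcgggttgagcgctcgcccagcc
Lama2: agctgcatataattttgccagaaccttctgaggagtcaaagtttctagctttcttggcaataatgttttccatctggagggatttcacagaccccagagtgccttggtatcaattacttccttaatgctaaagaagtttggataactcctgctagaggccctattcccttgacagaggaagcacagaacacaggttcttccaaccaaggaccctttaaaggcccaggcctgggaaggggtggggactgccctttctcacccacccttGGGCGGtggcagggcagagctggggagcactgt
Lama5: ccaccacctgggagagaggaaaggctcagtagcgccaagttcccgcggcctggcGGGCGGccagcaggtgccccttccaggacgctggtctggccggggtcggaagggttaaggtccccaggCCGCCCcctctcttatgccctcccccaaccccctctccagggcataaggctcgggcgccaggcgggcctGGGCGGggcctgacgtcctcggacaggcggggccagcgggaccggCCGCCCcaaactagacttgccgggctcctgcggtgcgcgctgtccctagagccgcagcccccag
Lamb3: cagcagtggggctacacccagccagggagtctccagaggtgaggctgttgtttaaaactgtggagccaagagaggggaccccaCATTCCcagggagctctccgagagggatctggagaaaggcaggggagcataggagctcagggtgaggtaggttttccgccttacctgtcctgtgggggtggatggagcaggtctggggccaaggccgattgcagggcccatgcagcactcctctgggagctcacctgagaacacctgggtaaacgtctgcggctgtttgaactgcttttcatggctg

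The Lama5 window was the richest in G and C of the 6, at 72.7% against a median of 52.7% over all windows, and held 4 GC boxes. The Lamb1 window was at 63.7% with 2 GC boxes, at positions -84 to -79 and -75 to -70 from the start site, and the Lama2 window at 50.3% with 1, at positions 18 to 23. GC boxes occurred in 35.7% of all windows. The Lamb3 window held 1 TEAD match at positions -167 to -162, a motif found in 14.7% of all windows, and the window of another Lamb3 start site held no match. The Lamb2 window, at 44% G and C, held none either. The AP-1 motif (TGANTCA, in 7.81% of windows) and the TATA box (TATAAA, in 13.6%) were in none of the 6. No matches overlapped, and a match describes letters in the window and not a site in use.

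Lama1 (ENSMUSG00000032796), the alpha chain of the Matrigel laminin and of early embryonic basement membranes, was highest in freshly isolated HSC. It stood at 161, 164 and 160.4 CPM at day 0, at 12.3, 8.98 and 7.76 CPM on plastic, at 26.1, 29.1 and 36.6 CPM in Matrigel alone, and at 47.8, 39.5 and 26.7 CPM in co-culture. In organoids it had 11 counts in 1 library alone in Matrigel and 5 counts in 1 co-cultured library, with 0 in the other four. The order was thus day 0, the pair of gel groups, plastic and organoids, and the gel groups overlapped.

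Lama2 (ENSMUSG00000019899), the alpha chain of muscle and mesenchymal basement membranes and a ligand of dystroglycan, followed another order. It was at 78.1, 88.4 and 74.1 CPM at day 0, at 30.1, 29.1 and 32 CPM on plastic, at 22.5, 23.9 and 32.2 CPM in Matrigel alone, and at 8.45, 5.28 and 4.35 CPM in co-culture. All co-cultured HSC libraries lay below all others, while plastic and Matrigel alone overlapped. In organoids 2 counts were found in 1 library alone in Matrigel and 0 in the remaining libraries.

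Lama4 (ENSMUSG00000019846), an alpha chain of vessel walls and mesenchyme, was low throughout and present in both cell types. In HSC it was at 21.2, 16.9 and 15.2 CPM at day 0, at 6.47, 5.86 and 3.85 CPM on plastic, at 4.75, 2.24 and 3.3 CPM in Matrigel alone, and at 14.7, 17.1 and 12.7 CPM in co-culture. In ICO it was at 13.5, 14.8 and 10.8 CPM alone and at 11.1, 6.15 and 16.3 CPM in co-culture. Plastic and Matrigel alone were the low groups and overlapped each other. Among the remaining groups, day 0 HSC and ICO alone did not overlap, and all other pairs did.

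Lama5 (ENSMUSG00000015647), the main alpha chain of adult epithelial and vascular basement membranes, was the leading alpha chain of the organoids. It was at 239, 259 and 229 CPM in ICO alone and at 342, 275 and 290.0 CPM in co-cultured ICO. In HSC it was at 8.47, 9.26 and 8.3 CPM at day 0, at 6.8, 6.15 and 5.77 CPM on plastic, at 71.1, 45.1 and 7.95 CPM in Matrigel alone and at 145, 56.5 and 160.1 CPM in co-culture. The gel-cultured HSC libraries were ordered within each group as their organoid shares.

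Lama3 (ENSMUSG00000024421), the alpha chain that anchors epithelia through hemidesmosomes, was at 41.7, 32.8 and 44.3 CPM in ICO alone and at 81.8, 58.8 and 67.7 CPM in co-cultured ICO, which did not overlap. It had 7 counts in 1 day 0 library and 0 in the other two, and 0 in every plastic library. In gel-cultured HSC it was at 12, 9.82 and 2.8 CPM alone and at 19.7, 12.7 and 23.4 CPM in co-culture, again in the order of the organoid shares.

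Lamb3 (ENSMUSG00000026639), the beta chain that pairs with the Lama3 product in anchoring laminin, was at 164, 172 and 156 CPM in ICO alone and at 233, 238 and 214 CPM in co-cultured ICO. Day 0 HSC held 5.49, 7.42 and 6.45 CPM, and plastic HSC only 1, 7 and 4 counts. HSC alone in Matrigel held 65.1, 28.5 and 5.49 CPM, and co-cultured HSC 68.4, 41 and 94 CPM. The third library of HSC alone in Matrigel, with the lowest organoid share, was at the day 0 level for Lamb3 and Lama5.

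Lamb1 (ENSMUSG00000002900), the common beta chain of mesenchymal and embryonic laminins, was the most abundant chain per kilobase of transcript in every HSC group. It ranged from 580.3 to 629 CPM at day 0, 438 to 609 CPM on plastic, 322 to 488 CPM in Matrigel alone and 385 to 558 CPM in co-culture, and from 43.1 to 57.3 CPM over the 6 ICO libraries. The cultured HSC groups overlapped one another, and no HSC library came near the organoid range. Lamb2 (ENSMUSG00000052911), the beta chain of kidney glomerulus and neuromuscular junction, ranged from 88.3 to 91.1 CPM at day 0, 30.02 to 36.4 CPM on plastic, 71.8 to 82.2 CPM in Matrigel alone, 75.4 to 103 CPM in co-culture, 112 to 129 CPM in ICO alone and 136 to 162 CPM in co-cultured ICO. Plastic was the low group. Lamc1 (ENSMUSG00000026478), the gamma chain of most laminins, ranged from 148 to 180.1 CPM at day 0, 173 to 220.2 CPM on plastic, 88.6 to 111 CPM in Matrigel alone, 101 to 133 CPM in co-culture, 65 to 67.1 CPM in ICO alone and 49.7 to 69.3 CPM in co-cultured ICO. Day 0 and plastic overlapped, as did the pair of gel groups and the pair of organoid groups.

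**Figure D1:**
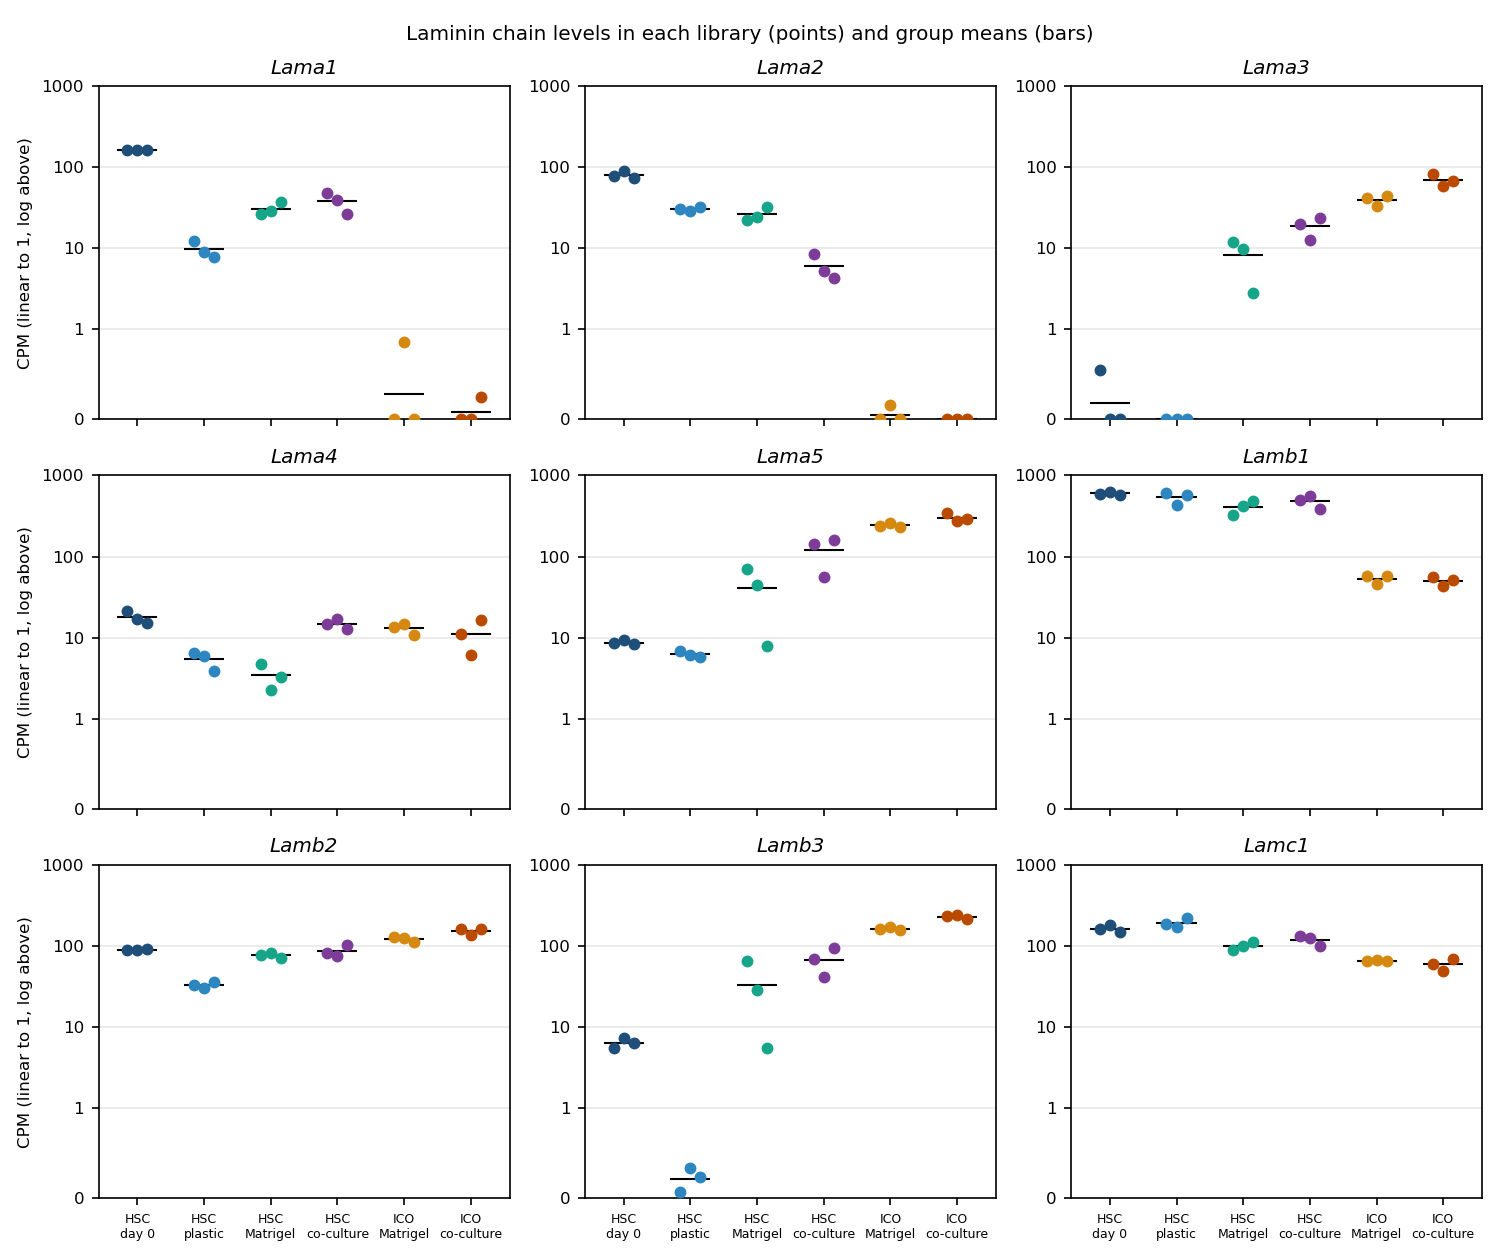
Level of each chain in CPM (vertical axis, linear up to 1 and logarithmic above) in the 18 libraries, by group; points are libraries and bars are means of 3. Lama1, Lama2 and Lamb1 were high in HSC and low or absent in ICO, Lama3, Lama5 and Lamb3 were high in ICO and spread widely in gel-cultured HSC, and Lama2 was lowest among HSC in co-culture.

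HSC and ICO grown alone in Matrigel were compared to separate stellate from epithelial chains. Of the 9 chains tested, 4 were higher in HSC and 5 higher in ICO, while over all 16233 genes tested the shares were 30.9% for HSC and 25.8% for ICO (edgeR quasi-likelihood test, Benjamini-Hochberg adjusted p under 0.05, as in all comparisons). Lama1 (log2 difference 6.79 ± 0.77 SE, adjusted p = 3.61e-05), Lama2, Lamb1 (3.02 ± 0.20, adjusted p = 9.17e-08) and Lamc1 (0.69 ± 0.15, adjusted p = 0.00166) were higher in HSC. For Lama2, against 2 counts in ICO, the ratio of summed counts was 515-fold, with an exact 95% interval of 142 to 4261 that covers counting error only. Lama3 (-2.20 ± 0.43, adjusted p = 0.00149), Lama4 (-1.85 ± 0.35, adjusted p = 0.000686), Lama5 (-2.47 ± 0.66, adjusted p = 0.0106), Lamb2 (-0.57 ± 0.13, adjusted p = 0.00239) and Lamb3 (-2.24 ± 0.67, adjusted p = 0.0178) were lower in HSC. The Lamb3 call was lost without replicate 2 of HSC alone in Matrigel (adjusted p = 0.0605). With the organoid share subtracted these differences were -4.11 for Lama3, -3.12 for Lama4, -5.54 for Lama5, -0.85 for Lamb2 and -4.34 for Lamb3. Subtraction removes organoid counts from the HSC libraries only, so for chains higher in ICO the direction of this shift was set by the step. The Lama1 value rests on 11 counts in ICO replicate 2: without that library it was 11.92, and at least 6.16 without any other.

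In co-culture, 4 chains were higher and 2 lower in HSC than in ICO, where 24% of genes were higher and 15.6% lower. The co-cultured HSC and ICO libraries share replicate labels, and this fit did not pair them. Lama1, Lama2, Lamb1 (3.30 ± 0.20) and Lamc1 (1.06 ± 0.15) were higher in HSC, and Lama2 was at least 104.4-fold higher, against a floor of 3 counts over the 3 co-cultured ICO libraries. Lama3 (-1.86 ± 0.41, adjusted p = 0.00506) and Lamb2 (-0.77 ± 0.13, adjusted p = 0.000473) were lower in HSC. Lama5 (-1.28 ± 0.63, adjusted p = 0.137) and Lamb3 (-1.71 ± 0.65, adjusted p = 0.0645) did not pass, although their libraries did not overlap between the cell types, and Lama4 differed by 0.45 ± 0.33 (adjusted p = 0.286). Of 14 alternatives, Lamb3 passed under 5, among them DESeq2 (adjusted p = 0.0302), a fit of only the libraries compared (0.000937) and subtraction of the organoid share (-6.04, 0.0059). Lama5 passed under 2, a fit of all 18 libraries (0.0467) and a fit of only the libraries compared (0.0129). Subtraction moved Lama3 to -6.07 and Lamb2 to -1.35. The direction of these shifts, and of that of Lamb3, was again set by the step.

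Shares among the alpha and among the beta chains were then computed from CPM per kilobase, dividing by the longest coding transcript of each gene. At day 0 the alpha chains of HSC were 58.5% ± 1.8 Lama1 and 28.7% ± 1.71 Lama2 (SD, n = 3 here and below). On plastic this was exchanged, with 17.9% ± 2.95 Lama1 and 56.5% ± 5.87 Lama2. In Matrigel alone Lama1 held 31% ± 12, Lama2 26.4% ± 10.8 and Lama5 30.6% ± 20.3. In co-cultured HSC Lama5 held 52.2% ± 14.6 and Lama2 3.31% ± 1.06. Organoids were 78.1% ± 1.67 Lama5 and 13.9% ± 2.63 Lama3 alone, and 76% ± 2.5 and 18.7% ± 0.747 in co-culture. Subtracting the organoid share brought the Lama5 share to 5.37% in HSC alone in Matrigel and to 29.4% in co-cultured HSC, Lama1 to 48.2% and 42.3%, and Lama2 to 41% and 6.51%.

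Of the beta chains, Lamb1 held 85.8% ± 0.603 at day 0, 94% ± 0.711 on plastic, 77% ± 9.34 in Matrigel alone and 73.5% ± 8.94 in co-culture. In ICO alone Lamb3 held 52.3% ± 1.8, Lamb2 33.4% ± 1.27 and Lamb1 14.3% ± 2.01.

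**Figure D2:**
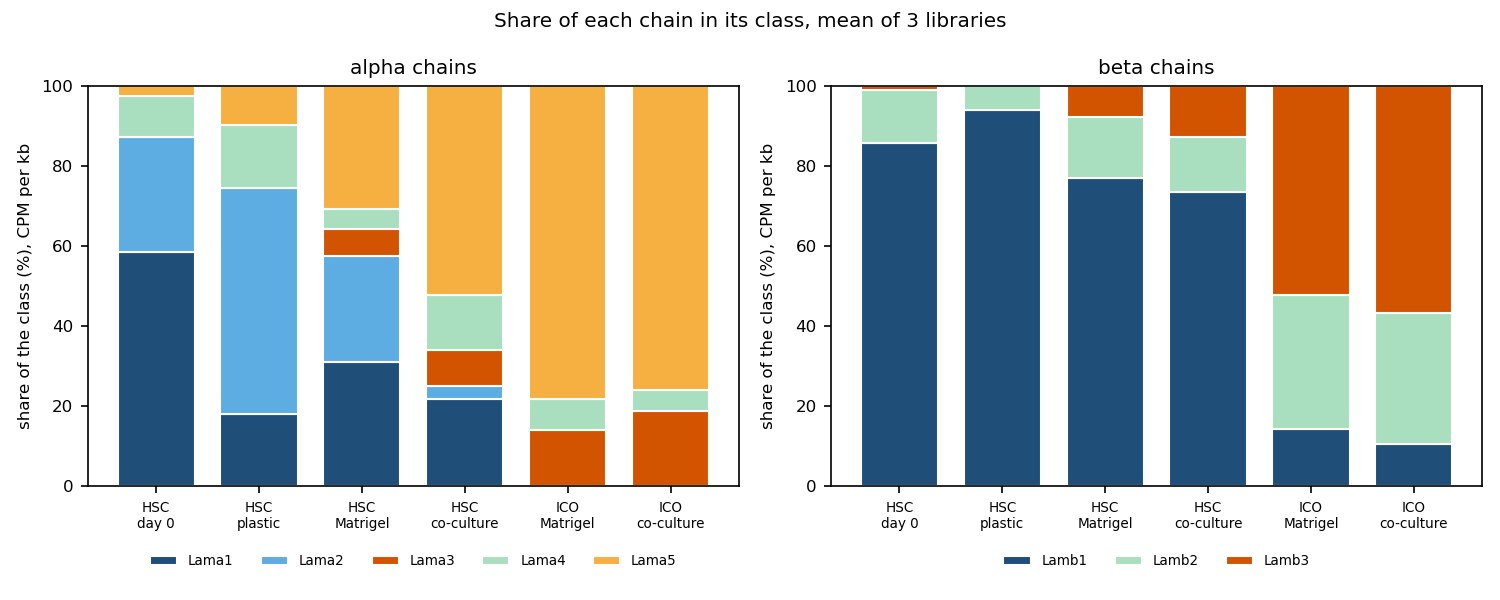
Share (%) of each chain among alpha and among beta chains by group, from CPM per kilobase of the longest coding transcript, as means of 3 libraries. Day 0 HSC were mostly Lama1 and Lamb1, plastic HSC mostly Lama2 and Lamb1, and ICO mostly Lama5 and Lamb3.

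The epithelial chains in gel-cultured HSC were set against the organoid share. For each library the share was multiplied by the mean organoid level of the chain in the same culture. The level measured in the HSC library divided by that product for Lama3 was 0.93, 1.89 and 1.84 in replicates 1 to 3 of the HSC kept alone and 0.986, 1.18 and 0.801 in co-culture. For Lamb3 it was 1.22, 1.32 and 0.87 alone and 1.04, 1.15 and 0.979 in co-culture, and for Lama5 it was 0.903, 1.42 and 0.855 alone and 1.66, 1.2 and 1.26 in co-culture. The 3 epithelial chains were thus at 0.801 to 1.89 times the product in all 6 libraries. Lamb1 was 18.2 to 238 times and Lamc1 4.04 to 43.9 times the product, and Lamb2 1.6 to 15.4 times. Lama4 was at 1.12, 1.31 and 6.6 times the product alone and at 4.57, 9.79 and 2.71 times in co-culture. Whether organoid cells or their RNA were in the HSC libraries was not tested.

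**Figure D3:**
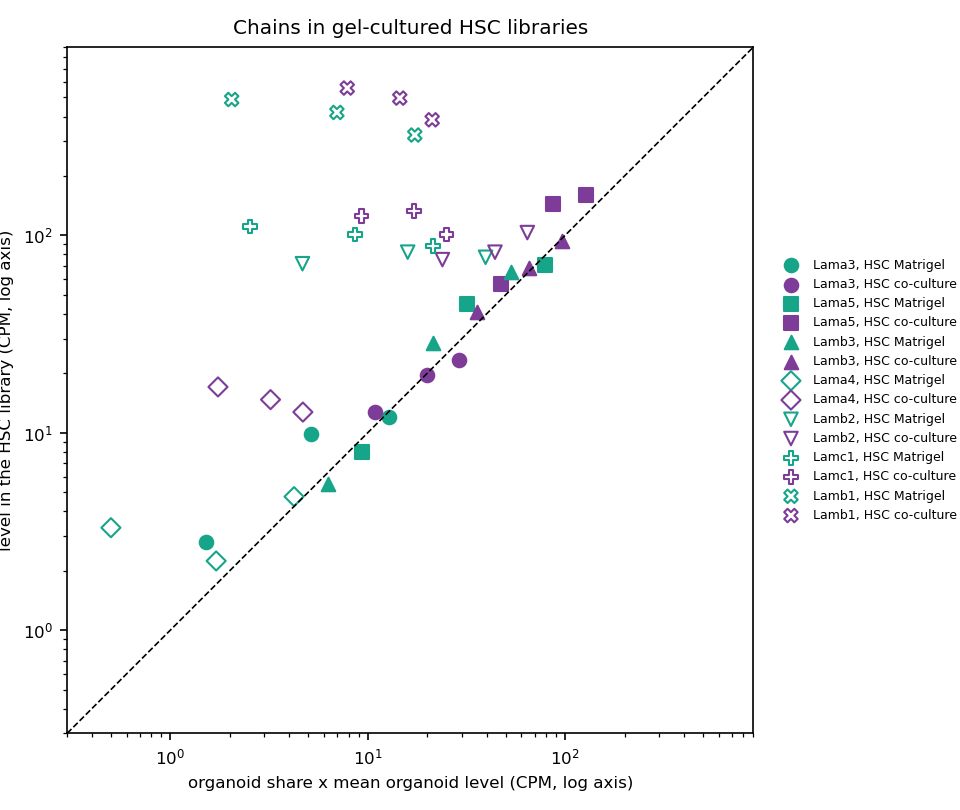
Measured level of 7 chains in each gel-cultured HSC library (vertical axis, CPM, log scale) against the organoid share times the mean organoid level (horizontal axis, CPM, log scale); the dashed line marks equality. Filled symbols (Lama3, Lama5, Lamb3) lie along the line, Lamb1 and Lamc1 lie well above it, and co-cultured HSC lie above it for Lama4.

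Culture on plastic was compared with day 0, both with an organoid share of at most 0.281%, a value kept low by the choice of markers. Of the 9 chains, 5 were lower and none higher, where 30.5% of 17020 genes were lower and 27.5% higher; their median log2 change was -1.37, against -0.10 over all genes. Lama1 fell by 4.0 (log2, SE 0.24, adjusted p = 2.38e-08), Lama2 fell by 1.34 (SE 0.21, adjusted p = 8.95e-05) and Lama4 fell by 1.65 (SE 0.29, adjusted p = 0.000248). Lamb2 fell by 1.37 (SE 0.13, adjusted p = 1.13e-06) and Lamb3 fell by 4.73 (SE 1.06, adjusted p = 0.00338). Lamb1 (-0.09 ± 0.19, adjusted p = 0.711) and Lamc1 (0.31 ± 0.14, adjusted p = 0.0805), the chains that complete the trimer, did not pass, nor did Lama5 (-0.41 ± 0.68, adjusted p = 0.631) and Lama3, which was near 0 in both. Lamc1 passed without plastic replicate 2 (adjusted p = 0.0432). Marker sums of other cells were also lower on plastic, at 113.8 to 141.2 CPM for hepatocytes and 863.5 to 1067 CPM for endothelium. The macrophage sum was 113.1 to 512.2 CPM (815.2 to 858.3 CPM at day 0). Of the endothelial sum on plastic, Eng alone held 790.4 to 987.9 CPM. The stellate sum was 7395 to 11910 CPM on plastic against 85230 to 99590 CPM at day 0. Most of the day 0 sum was Dcn and Ecm1, with means of 49400 and 26350 CPM. Of the 14 stellate markers, 11 were lower and 1 higher on plastic. The part of these sums in the changes was not tested.

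HSC alone in Matrigel were compared with day 0. Of the 9 chains, 3 were higher and 5 lower, where 19.3% of genes were higher and 21.5% lower. Lama1 fell by 2.39 (SE 0.22, adjusted p = 2.48e-06), Lama2 fell by 1.60 (SE 0.21, adjusted p = 4.7e-05), Lama4 fell by 2.37 (SE 0.30, adjusted p = 3.66e-05) and Lamc1 fell by 0.70 (SE 0.14, adjusted p = 0.00185). Lamb1 fell by 0.54 (SE 0.19, adjusted p = 0.033), a call lost without any 1 of the day 0 libraries or without Matrigel replicate 1 or 2 (adjusted p = 0.0573 to 0.104). Lama3 rose by 5.52 ± 0.95 (adjusted p = 0.00122), Lama5 by 2.25 ± 0.67 (adjusted p = 0.0236) and Lamb3 by 2.34 ± 0.71 (adjusted p = 0.0244), with libraries of Lama5 and Lamb3 overlapping day 0. The size of the Lama3 value rests on the 7 counts of day 0 replicate 1: it was 9.96 without that library, and at least 4.88 without any other. The Lama5 call was lost without any 1 of the day 0 libraries or without Matrigel replicate 1 or 2 (adjusted p = 0.054 to 0.0901), and the Lamb3 call without any 1 of the day 0 libraries or without Matrigel replicate 1 (adjusted p = 0.0659 to 0.094). After subtraction of the organoid share, Lama3, Lama5, Lamb3 and Lamb1 did not pass (adjusted p = 0.19, 0.724, 0.843 and 0.0948), and Lama1, Lama2, Lama4 and Lamc1 stayed lower. In these Matrigel libraries the marker sums were 210.9 to 270.9 CPM for hepatocytes, 1125 to 1750 CPM for endothelium and 25800 to 48000 CPM for stellate cells. These were all lower than at day 0, and the macrophage sum was higher. Of the endothelial sum in Matrigel, Eng alone held 1061 to 1660 CPM. The part of these sums in the changes was not tested.

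Against plastic, HSC alone in Matrigel had 5 chains higher and 1 lower, where 29.9% of genes were higher and 25.2% lower. Lama1 rose by 1.61 ± 0.23 (adjusted p = 6.69e-05) and Lamb2 by 1.17 ± 0.13 (adjusted p = 9.05e-06), and Lamc1 fell by 1.01 (SE 0.15, adjusted p = 7.72e-05). Lama3 was at least 143.7-fold higher, against a floor of 3 counts over the plastic libraries, and Lama5 (2.66 ± 0.68, adjusted p = 0.00852) and Lamb3 (7.07 ± 1.02, adjusted p = 0.000287) were higher. With the organoid share subtracted, 5 of the 6 calls stayed, Lama3 (adjusted p = 0.0424) and Lamb3 (5.16, adjusted p = 0.0278) among them, and Lama5 was lost (-0.30, adjusted p = 0.876). Counts below 0 after subtraction were set to 0, and both chains were at or near 0 counts on plastic. What was left in replicates 1 to 3 was 0, 4.98 and 1.3 CPM of Lama3 and 16.2, 7.47 and 0 CPM of Lamb3. These 2 kept calls therefore cannot show expression apart from the organoid share. Lama2 (-0.27 ± 0.21, adjusted p = 0.292) did not pass. Lama4 (-0.71 ± 0.30, adjusted p = 0.0552) passed without plastic replicate 3 (0.0255) or Matrigel replicate 1 (0.0155), with RLE scaling (0.0482), with DESeq2 (0.0342) and with the organoid share subtracted (-1.88, 0.00543). Lamb1 (-0.45 ± 0.19, adjusted p = 0.053) passed without plastic replicate 2 (0.0202) or Matrigel replicate 3 (0.0139), with RLE scaling (0.0448), with no low-count filter (0.0334), with DESeq2 (0.0324) and in 1 fit of all 18 libraries (0.0242), but not after subtraction (0.195).

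Co-cultured HSC had 3 chains higher and 3 lower than day 0, where 28.9% of genes were higher and 24.8% lower. Lama2 fell by 3.72 (SE 0.24, adjusted p = 2.85e-08) and Lama1 fell by 2.04 (SE 0.22, adjusted p = 5.11e-06). Lamc1 fell by 0.39 (SE 0.14, adjusted p = 0.0347), a call lost without day 0 replicate 2 (0.084) or co-culture replicate 2 (0.0523) or 3 (0.138). The Lamc1 value was -0.10 (adjusted p = 0.569) after subtraction of the organoid share and -0.05 (adjusted p = 0.884) with the share as a covariate. Lama3 (6.76 ± 0.96), Lama5 (3.85 ± 0.70) and Lamb3 (3.44 ± 0.73) were higher, with adjusted p = 0.000203, 0.00118 and 0.00272; with the organoid share subtracted these were 0.38, 0.151 and 0.644. Leaving out day 0 replicate 1 moved the Lama3 value to 11.18, and without any other library it was at least 6.10. Against plastic, 6 chains were higher and 2 lower, where 22.9% of genes were higher and 19.6% lower. Lama1 rose by 1.96 ± 0.23 (adjusted p = 2.77e-05), Lama4 by 1.45 ± 0.29 (adjusted p = 0.00137) and Lamb2 by 1.39 ± 0.13 (adjusted p = 4.96e-06), Lama2 fell by 2.38 (SE 0.23, adjusted p = 5.12e-06) and Lamc1 fell by 0.70 (SE 0.14, adjusted p = 0.00169). Lama5 (4.26 ± 0.72) and Lamb3 (8.17 ± 1.03) were higher, and Lama3 was at least 326-fold higher against the plastic floor; none of these 3 passed with the organoid share subtracted (adjusted p = 0.126, 0.098 and 0.111). These comparisons share their day 0, plastic or gel libraries.

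Co-culture was compared with Matrigel alone in HSC, where the gel is common to both groups. Of these groups, only the co-cultured HSC are described as sorted, so effects of organoids and of sorting cannot be told apart. HSC alone in Matrigel also had organoid shares of 3.84% to 32.5%. Lama2 fell by 2.12 (log2, SE 0.23, adjusted p = 1.4e-05) and Lama4 rose by 2.16 ± 0.30 (adjusted p = 0.000122), and the remaining 7 chains did not pass. Over all genes, 17.3% were higher and 13.8% lower. Neither pair of groups overlapped: the highest co-cultured library had 8.45 CPM of Lama2 against a lowest of 22.5 CPM alone, and the lowest co-cultured library had 12.7 CPM of Lama4 against a highest of 4.75 CPM alone. Both calls stayed under each alternative run, with adjusted p of at most 0.00161 for Lama2 and 0.00256 for Lama4. The change after subtraction of the organoid share was -1.87 ± 0.21 for Lama2 and 3.47 ± 0.48 for Lama4. Subtraction lowered Lama4 in HSC alone to 0.736, 0.569 and 2.82 CPM, so its larger change followed from the step. In co-cultured HSC the macrophage marker sum was lower, the mesothelial and portal fibroblast sum, also high in ICO, was higher, and the stellate sum was 8087 to 12980 CPM against 25800 to 48000 CPM alone. Endothelial markers summed to 442.8 to 663.2 CPM in co-culture against 1125 to 1750 CPM alone. Eng alone held 403.8 to 620.5 CPM in co-culture and 1061 to 1660 CPM alone. The group means of Cdh5, Kdr, Clec4g and Emcn were at most 0.524 CPM in both groups. The part of these cell markers in the changes was not tested.

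None of the other 7 chains passed between the gel groups. Lama1 differed by 0.35 ± 0.22 (adjusted p = 0.237), Lamb1 by 0.27 ± 0.19 (adjusted p = 0.292), Lamc1 by 0.30 ± 0.15 (adjusted p = 0.128) and Lamb2 by 0.22 ± 0.13 (adjusted p = 0.212). On subtraction of the organoid share, Lama1 (0.58, adjusted p = 0.0268), Lamb1 (0.50, adjusted p = 0.00981) and Lamc1 (0.48, adjusted p = 0.0123) passed, all higher in co-culture. Libraries were rescaled after subtraction, which raised chains low in ICO more where the share was high. In replicate 3, Lama1 went from 26.7 to 45.7 CPM in co-culture (share 42%) and from 36.6 to 36.8 CPM alone (share 3.84%). The upward shift of these 3 values thus followed from the step. Lama3 differed by 1.24 ± 0.66 (adjusted p = 0.185), Lama5 by 1.61 ± 0.63 (adjusted p = 0.0819) and Lamb3 by 1.10 ± 0.66 (adjusted p = 0.234). Without replicate 1 of HSC alone in Matrigel, which had the highest organoid share of its group, Lama5 (2.24, adjusted p = 0.0339) and Lamb3 (2.05, adjusted p = 0.0263) passed, and Lama5 also without replicate 3 (1.11, adjusted p = 0.0461).

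**Figure D4:**
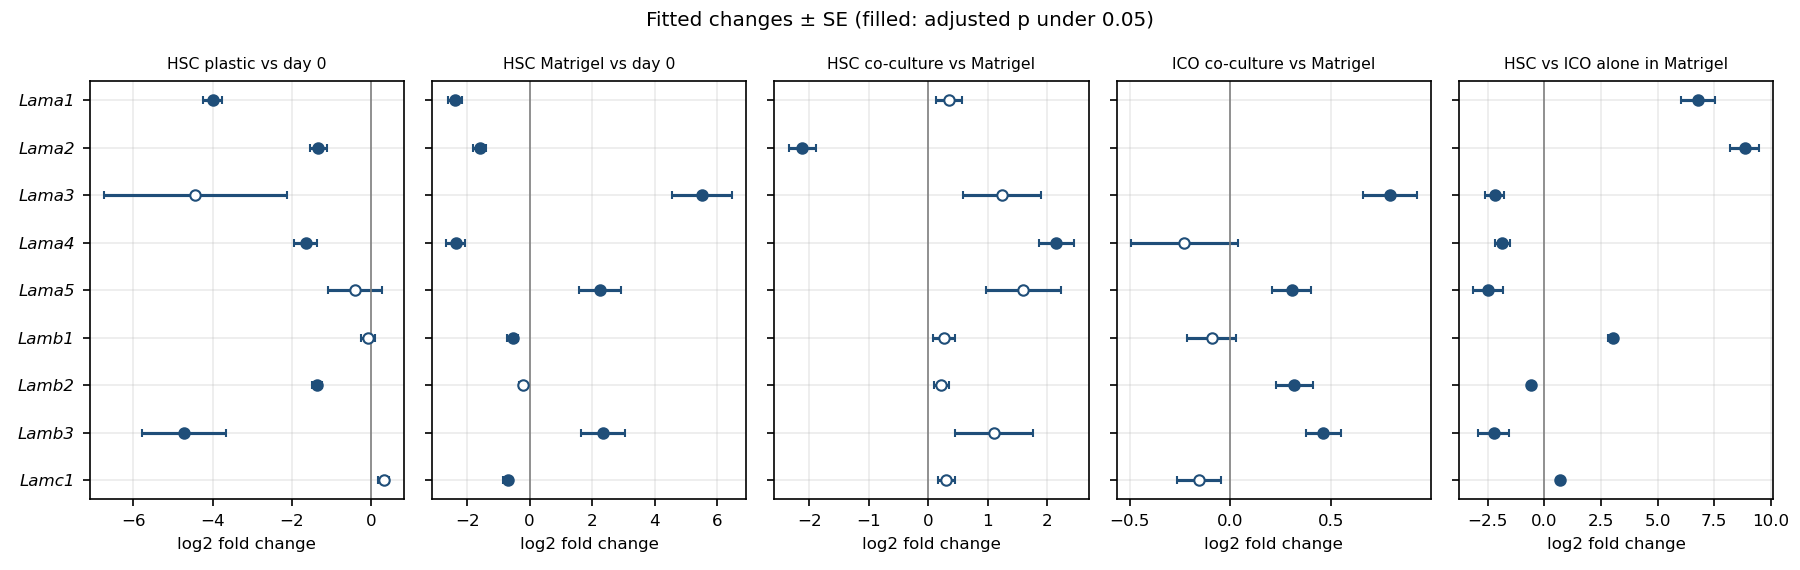
Fitted log2 fold changes of the chains (horizontal axes, error bars are SE) in 5 comparisons; filled points passed an adjusted p of 0.05. In HSC, co-culture against Matrigel alone gave -2.12 for Lama2 and 2.16 for Lama4, while in ICO the passing chains were Lama3, Lama5, Lamb2 and Lamb3, all higher.

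In organoids, 7 chains passed the low-count filter, and Lama1 and Lama2 were not tested. Only the co-cultured ICO are described as sorted, so effects of HSC and of sorting cannot be told apart here either. Co-culture had 4 of the 7 higher and none lower, where 8.59% of 13726 genes were higher and 7.96% lower. Lama3 rose by 0.79 ± 0.13 (log2, adjusted p = 0.000456) and Lamb3 by 0.46 ± 0.09 (adjusted p = 0.00111), with no overlap between cultures. Lama5 rose by 0.30 ± 0.10 (adjusted p = 0.0355), a call lost without ICO replicate 1 (0.128), 2 (0.0521) or 3 (0.13) alone in Matrigel or co-cultured replicate 1 (0.195). Lamb2 rose by 0.32 ± 0.09 (adjusted p = 0.0235), a call lost without replicate 2 (0.0608) or 3 (0.108) alone or co-cultured replicate 1 (0.0973) or 3 (0.0757). Lama4 (-0.23 ± 0.26, adjusted p = 0.627), Lamb1 (-0.09 ± 0.12, adjusted p = 0.677) and Lamc1 (-0.16 ± 0.11, adjusted p = 0.393) did not pass. In 1 fit of all 18 libraries none of the chains passed, with adjusted p = 0.381 for Lama3 and 0.741 for Lamb3.

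The co-culture effect in HSC minus that in ICO was tested for all 9 chains. In each cell type that effect includes any effect of sorting. Lama4 alone passed, at 2.30 ± 0.48 on the log2 scale (adjusted p = 0.00554), where 9.08% of genes were higher and 8.08% lower. Over the alternatives run its adjusted p was at most 0.0173. Lama3 differed by 0.34 ± 0.58 (adjusted p = 0.732) and Lamb3 by 0.54 ± 0.91 (adjusted p = 0.735). Lama2 could not be compared this way in substance, as organoids had 2 counts in all.

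The balance of Lama2 and Lama1 within a library is nearly free of organoid transcripts, since both chains were at or near 0 counts in ICO. The ratio of Lama2 to Lama1 per kilobase was 0.48, 0.535 and 0.458 at day 0, 2.43, 3.21 and 4.09 on plastic, 0.856, 0.816 and 0.871 in Matrigel alone and 0.175, 0.132 and 0.161 in co-culture. The 4 groups did not overlap, with means of 0.491 ± 0.0399, 3.24 ± 0.829, 0.848 ± 0.0288 and 0.156 ± 0.0219 (SD, n = 3). The ratio was chosen after the values were seen and is given with no test. After subtraction it was 0.849 in Matrigel alone and 0.156 in co-culture. The Lamb1 to Lamb2 ratio was 6.54 ± 0.372 at day 0, 15.9 ± 1.98 on plastic, 5.21 ± 1.29 in Matrigel alone and 5.57 ± 1.81 in co-culture, and 0.429 ± 0.0705 and 0.32 ± 0.0165 in ICO alone and co-cultured.

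**Figure D5:**
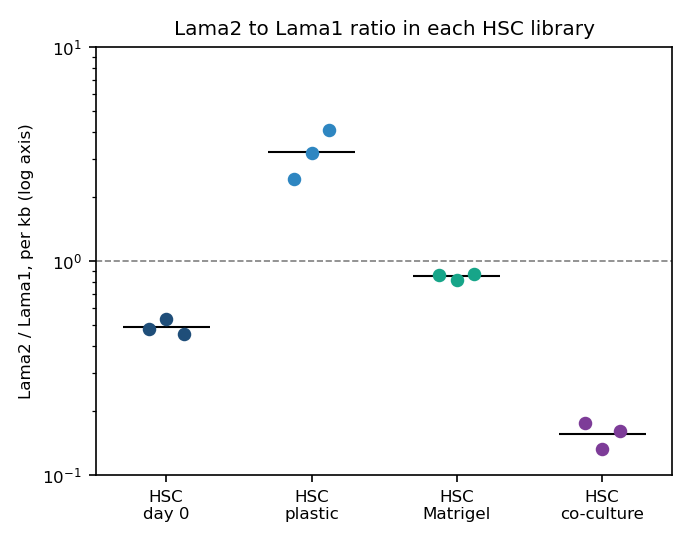
Ratio of Lama2 to Lama1 (CPM per kilobase of transcript, log axis) in each of the 12 HSC libraries; points are libraries, bars are means of 3 and the dashed line marks equality. Plastic libraries lay above 1, at 2.43 to 4.09, and co-cultured libraries lowest, at 0.132 to 0.175.

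Genes that receive, anchor or link laminin were read from lists of fixed membership. Of 12 laminin receptors, 5 were higher and 1 lower in co-cultured HSC than in HSC alone in Matrigel, with a median log2 change of 0.81 against 0.03 over all genes, of which 17.3% were higher and 13.8% lower. Bcam, a Lama5 receptor of the immunoglobulin family, rose by 2.56 ± 0.66 (adjusted p = 0.0156), from a mean of 37.7 to 212 CPM, and Sdc1, an epithelial syndecan, by 2.52 ± 0.69 (adjusted p = 0.0214). Itga1, a collagen and laminin integrin of mesenchymal cells, fell by 1.44 (SE 0.18, adjusted p = 5.18e-05). Bcam and Sdc1 were high in ICO, at 202 and 785 CPM alone, and the part of the organoid share in their rise was not tested. Between HSC and ICO alone, 1 receptor was higher in HSC, Itga1 (5.62 ± 0.27), and 8 were lower, including Sdc1 (-3.02 ± 0.72) and Itga2 (-2.58 ± 0.59), with adjusted p = 1.2e-08, 0.00632 and 0.00504, where 30.9% of all genes were higher and 25.8% lower in HSC. In ICO, co-culture had Bcam higher (0.55 ± 0.08, adjusted p = 0.000188) and Itga2, another collagen and laminin integrin, lower (-0.39 ± 0.10, adjusted p = 0.00926), and 10 of the 12 did not pass. Over all genes tested in ICO, 8.59% were higher and 7.96% lower, so the receptor counts were near the share of all genes.

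Of the 8 network partners, which bind laminin into the basement membrane or compete for it, 4 were higher and 2 lower in co-cultured HSC than alone, against 17.3% and 13.8% of all genes. Nid2, a nidogen that bridges laminin and collagen IV, rose by 2.81 ± 0.33 (adjusted p = 6.17e-05), from 24.6 to 166 CPM. Smoc1 also rose (2.67 ± 0.74, adjusted p = 0.0145), from a mean of only 0.107 to 0.743 CPM. Smoc2, a matricellular protein, fell by 4.85 (SE 0.60, adjusted p = 0.00021), from 334 to 11.3 CPM, and Ntn1, a secreted netrin with laminin-like domains, fell by 2.48 (SE 0.25, adjusted p = 1.27e-05), from 295 to 51.4 CPM. Nid2, Smoc2 and Ntn1 were each under 12 CPM in the means of both ICO groups. On plastic against day 0, Nid2 rose by 3.61 ± 0.34 and Smoc2 fell by 4.72 (adjusted p = 2.37e-06 and 6.76e-05). Smoc1 fell by 7.22 (adjusted p = 3.53e-06), and 1 partner was higher and 4 lower in all, against 27.5% and 30.5% of all genes. Of the 5 hemidesmosome genes tested of 6, Itga6 (1.59 ± 0.49, adjusted p = 0.025) and Plec (0.78 ± 0.20, adjusted p = 0.00851), an integrin chain and the plakin that links it to keratin, were higher in co-cultured HSC than alone, and none lower, against 17.3% and 13.8% of all genes. Itga6 rose from a mean of 6.69 to 19.3 CPM and Plec from 47.4 to 78.2 CPM, ICO alone held 41.5 and 124 CPM of them, and the part of the organoid share in their rise was not tested. In ICO, 1 of the 5 was lower in co-culture, Dst, another plakin (-0.71 ± 0.22, adjusted p = 0.0334), and none higher. Of all genes in that comparison, 7.96% were lower and 8.59% higher.

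Genes with the pattern most like each chain were found by Pearson's r of log2(CPM + 1) over the 18 libraries, among 11221 genes with a mean of at least 10 CPM in some group. The libraries share cell type and organoid share, so r is a description. Closest to Lama1 were Pcdhb9, Cyp2d22 and S1pr3 (r = 0.988, 0.987 and 0.987), and closest to Lama2 were Art3, Pla2r1 and Mgll (0.994, 0.992 and 0.991). Lamb1 was closest to Rbm46, Gnb4 and Clip3 (0.992, 0.992 and 0.991) and Lamc1 to Cnn3, Sytl4 and Arf2 (0.973, 0.972 and 0.966). Lama5 was closest to Ttc39a, Kcne3 and Entpd3 (0.997, 0.996 and 0.996), Lamb3 to Onecut2, Ocln and Cblc (0.997, 0.995 and 0.995) and Lama3 to Prr15l, Pglyrp1 and Cldn4 (0.994, 0.993 and 0.993), of which Cldn4 and Ocln encode tight junction proteins. Lamb2 was closest to Zc3h3, Rbm47 and Gpd1 (0.979, 0.977 and 0.975). Lama4 had the lowest likeness of the 9, with Egr2, Nr4a1 and Cemip2 at 0.89, 0.881 and 0.874, of which Egr2 and Nr4a1 are immediate early genes.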

How the data were processed

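The authors deposited estimated counts for each gene in each library, not all whole (23.1% to 34.4% of values differed from a whole number by over 0.01). Kallisto 0.46.1, DESeq2 1.36.0 and the build GRCm39 appear in the submitters' processing notes, with no role; annotation release, filters and gene summing were not given in the sources used here. Estimated counts divide reads that fit several transcripts, so values of genes with near-identical copies are uncertain.

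Groups came from the labels. Counts were rounded and tested with edgeR 4.0.16 in R 4.3.3 (TMM scaling, default low-count filter, robust quasi-likelihood test, Benjamini-Hochberg adjustment over all genes tested, threshold 0.05). The HSC comparisons used 1 fit of the 12 HSC libraries, the ICO comparison the 6 ICO libraries, and comparisons across cell types the 12 gel libraries. The SE was derived from the fitted change and the F value, as their ratio after taking the square root of F. CPM used TMM factors over all 18 libraries. Transcript lengths came from an annotation of build GRCm38, so no gene coordinates are printed. For 43 repeated symbols the row with more counts was used. The test was tested on simulated counts.

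The chains, the lists and the organoid share were chosen with earlier results of these data known. Named list genes were, per comparison, the called members with the largest fitted change, at most 2 in each direction; the rest are summarised as counts, and some genes the rule names are left out here. Alternatives were RLE scaling, other low-count filters, DESeq2 1.42.0, other sets of libraries in the fit, a replicate block, the organoid share subtracted or as a covariate, and each library left out. Replicate libraries differed by more than sampling noise (chi-square per degree of freedom 5.9 to 72). Total counts of 6907253 to 22158493 per library set the precision; floors and intervals cover counting error only.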

Additional observations from a re-analysis of the deposited data

Results flagged for a closer look

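The co-culture effect on Lama4 differed between the cell types, by an interaction test over the 12 gel libraries: HSC minus ICO was 2.3 on the log2 scale (SE 0.48, edgeR adjusted p = 0.00554). Lama4 was higher in 3 of 3 co-cultured HSC libraries than in every library of HSC alone in Matrigel, while the organoid libraries of both cultures overlapped. With the organoid share subtracted from the HSC libraries the difference was 3.63 (adjusted p = 0.00339). Subtraction left 0.736, 0.569 and 2.82 CPM of Lama4 in HSC alone and 16.2, 18.1 and 13.8 CPM in co-cultured HSC. The larger difference thus followed from the step. Leaving out each library in turn gave 2.02 to 2.68, with adjusted p of 0.0021 to 0.0173.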

How the results depend on the processing

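Of 1316 values of single chains under the alternatives, 1197 kept their direction and side of the threshold, 57 no longer passed, 34 newly passed and 28 changed sign. The number of chains called moved by over 1.5 times as follows. With the organoid share subtracted it was 4 for Matrigel against day 0 (8 as reported), 3 for co-culture against day 0 (6), 5 for co-culture against plastic (8), 5 for co-culture against Matrigel in HSC (2) and 2 for the difference of co-culture effects (1). With the share as a covariate it was 5, 3 and 4 for Matrigel against day 0, co-culture against day 0 and co-culture against Matrigel in HSC. With each library left out in turn it ranged from 5 to 8 for Matrigel against day 0, from 2 to 4 for co-culture against Matrigel in HSC and from 2 to 4 in ICO (4 as reported), and in 1 edgeR fit of all 18 libraries it was 0 in ICO, against 4 with DESeq2 on the ICO libraries. The causes were not tested.

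Sign changes were in values that did not pass in the report, apart from Lama5 in Matrigel alone and Lamb3 in co-culture against day 0, which no longer passed; Lamb2 in co-culture against day 0 passed with the opposite sign on subtraction. With the organoid share subtracted, Lama5 was -0.71 against day 0 and -0.30 against plastic in Matrigel alone, Lama2 0.022 against plastic in Matrigel alone, Lamb1 0.20, Lamb3 -0.86 and Lamb2 -0.48 in co-culture against day 0, Lamb1 0.29 in co-culture against plastic, Lama3 -1.36, Lamb3 -1.27 and Lamb2 -0.11 in co-culture against Matrigel, and Lama3 -1.96 and Lamb3 -1.71 in the difference of effects. With the share as a covariate, co-culture gave Lamb1 0.31 and Lamb2 -0.25 against day 0 and Lamb1 0.41 against plastic. Lamb2 in co-culture against day 0 was -0.053 with RLE scaling and -0.053 with DESeq2, -0.048 with no filter, -0.06 with only the libraries compared, and -0.13 to 0.11 with a library left out. Leaving out libraries gave Lama3 -5.07 to 0 and Lamb1 -0.16 to 0.079 for plastic against day 0, Lama4 -0.60 to 0.048 in ICO, and, for the difference of effects, Lama3 -0.08 to 0.73, Lama2 -2.17 to 1.25 and Lama1 -3.35 to 5.36, the last 2 resting on counts near 0 in ICO.

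The labels number replicates 1 to 3 in each group, and same-numbered libraries did not deviate together (r -0.25 to 0.06). Co-cultured HSC and ICO libraries also share the letter of their labels, so they may come from the same cultures. Their r of -0.01 to 0.04 cannot show that they were unpaired, and the main fit did not pair them. With a replicate block, the number of chains called was 6 for Matrigel against day 0, 5 for co-culture against day 0, 7 for Matrigel against plastic and 3 in ICO; in the other comparisons it was as reported. Lama3 shares depend on its length: with its second coding transcript they were 23.4% in ICO alone and 30.5% in co-cultured ICO. Lama3 and Lamb3 on plastic, and Lama1 and Lama2 in ICO, were at or near 0 counts, where depth limits any fold.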
